A study of Mus musculus with 6 samples.

Results

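The 10 genes described here act in DNA replication, its control, chromatin assembly or DNA repair: E2f1, Gins1, Gins2, Cdt1, Pclaf, Pold1, Asf1b, Brca1, Ung and Shld1. They were chosen by gene name from the authors' deposited table of isoform usage, whose rows were selected on the q-value and size of the usage difference between the conditions compared here. That table lists 16 isoforms of these genes among 302 isoforms of 202 genes. The libraries came from mouse duodenal crypt organoids of C57BL/6 WT genotype, epithelial cultures grown from intestinal crypts, which received on day 6 either vehicle (3 libraries) or BMP2 at 100 ng/ml (3 libraries) for 24 h. All libraries share this genotype and tissue, and the labels do not say whether they came from separate animals or cultures. The authors' q-values may therefore reflect technical spread alone. Usage is an isoform's share of all transcripts of its gene, and TPM is a transcript's abundance, scaled to the total of its library and corrected for length. Both are the authors' values per condition, so no value below has a replicate error, the depth of the libraries is unknown, and the differences in TPM have no test. None of the 19 markers of intestinal epithelium and none of the 11 markers of other cell types looked for is in the table, so the tissue label could not be checked against them.

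Cells prepare for S phase by loading the replicative helicase at origins, a step called licensing that needs CDT1. The helicase is then completed by the GINS complex, DNA polymerases copy the strands on the sliding clamp PCNA, and histone chaperones rebuild chromatin behind the fork. E2F transcription factors switch on many of the genes for these steps when the retinoblastoma protein releases them. In the intestine the dividing cells lie in the crypt and the differentiated cells on the villus, where BMP signalling is strong.

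The transcripts of 9 of the 10 genes were less abundant with BMP2, beside the usage changes for which the table lists them. For each gene a level was implied by the mean TPM and the usage of the listed isoforms, as the ratio of their sums. Of the 202 genes in the table, 195 have a level. The others were left out because the TPM or usage of their listed isoforms summed to 0 in a condition. The level was more than 2-fold lower in BMP2 for 9 of the 10 genes, while the same held for 31.8% of the 195. It was more than 4-fold lower for 8 of them, against 15.9% of the 195. The median log2 ratio of the level was -2.75 for the 10 genes and -0.12 for all 195. Summed over the 10 genes, the level was 231.2 TPM in vehicle against 37.8 TPM in BMP2. The genes were proposed with values of this same comparison known, so these shares are a description. In organoids measured in bulk, fewer cells of a type and less RNA per cell cannot be told apart.

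**Figure D1:**
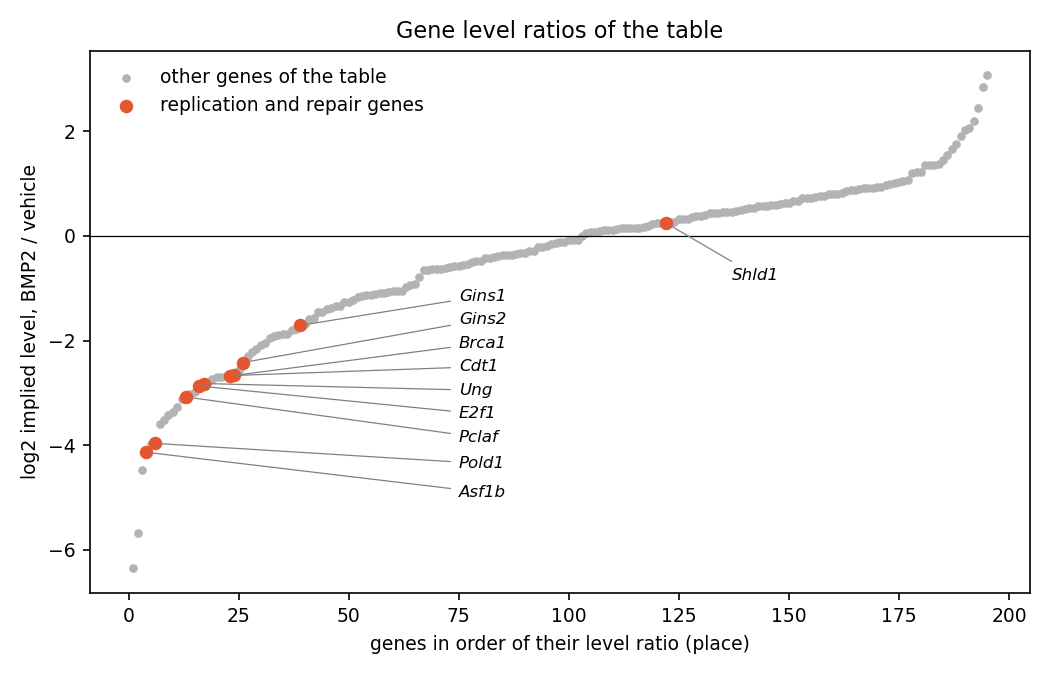
Log2 ratio of the implied gene level, BMP2 over vehicle (vertical axis), for the 195 genes with a level, placed in order from the lowest to the highest ratio (horizontal axis). The 9 labelled genes from Asf1b to Gins1 lie between places 4 and 39, and Shld1 lies at place 122, just above a ratio of 0.

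Asf1b stood lowest of the group at a log2 ratio of -4.13, followed by Pold1 at -3.97 and Pclaf at -3.08. E2f1 at -2.87, Ung at -2.82, Cdt1 at -2.67 and Brca1 at -2.67 lay close together. Gins2 was at -2.42 and Gins1 at -1.71, and Shld1 at 0.25 was the only gene with a higher level in BMP2. Without a spread over libraries, neighbours in this order cannot be separated. In vehicle the levels ran from 5.41 TPM for Shld1 to 71.1 TPM for Pclaf, and in BMP2 from 1.17 TPM for E2f1 to 8.41 TPM for Pclaf. The level in BMP2 was under 5 TPM for 6 of the 10 genes and under 2 TPM for 4 (E2f1, Pold1, Asf1b and Brca1), so the shares of these genes in BMP2 rest on little RNA.

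Usage was higher in BMP2 for 8 of the 16 isoforms and lower for 8, and the table as a whole has 45.0% higher. All 16 pass the authors' q of 0.05 and a usage difference over 10 percentage points, as does 100% of the table, which lists nothing else. With a q under 0.01 required, 13 of 16 were left, beside 73.5% of the table, and with a difference over 20 points 10 of 16, beside 50.7%. The members nearest to the table's own limits, a q of 0.05 and 10 points, are Pold1-201, with q = 0.0247, and Asf1b-203, with a difference of -11.2 points, and isoforms outside the table were not analysed here. Their absolute usage difference had a median of 26.6 points, and that of all 302 isoforms 20.15 points. The most used of the listed isoforms differed between conditions in 3 of the 6 genes with a pair of listed isoforms (E2f1, Gins1 and Gins2), and in 41.1% of such genes over the table.

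**Figure D2:**
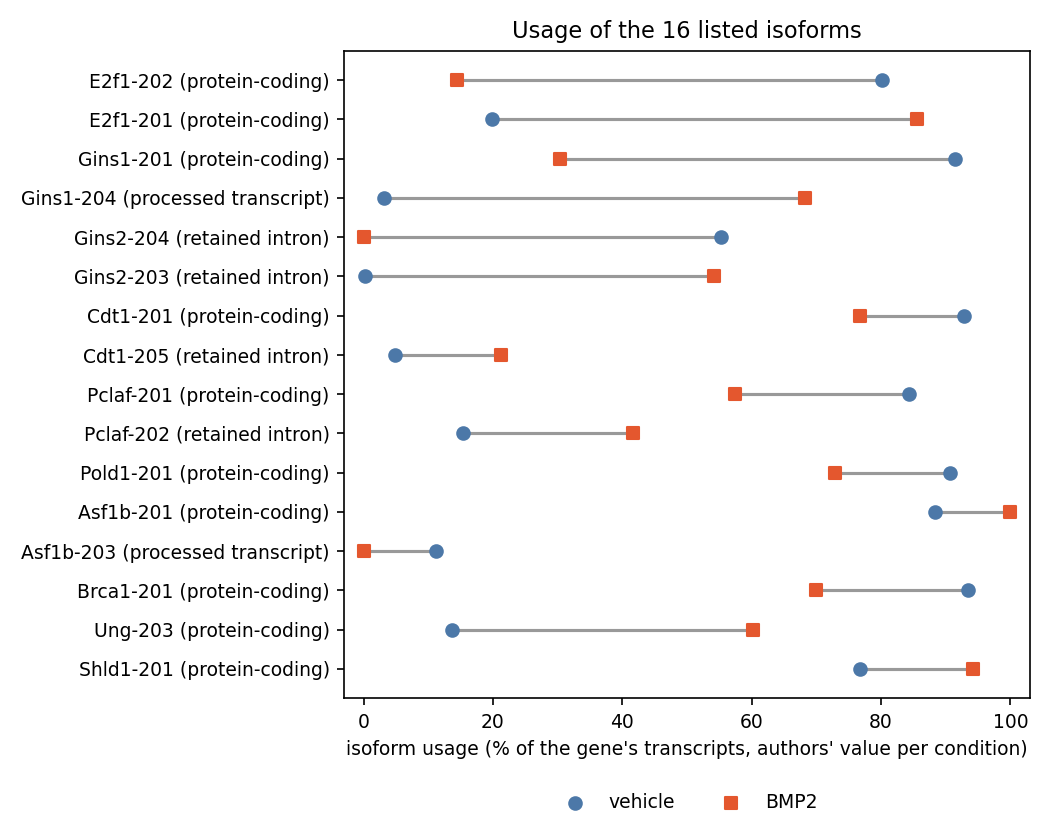
Usage of each of the 16 isoforms as a percent of the transcripts of its gene (horizontal axis) in vehicle (circles) and BMP2 (squares), with the annotated transcript class beside each name. The longest lines are those of E2f1, Gins1 and Gins2, and the shortest are those of Asf1b.

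A higher share came with more transcript in 3 isoforms and with less in 5. Mean TPM was lower in BMP2 for 13 of the 16 isoforms, including 5 of the 8 whose usage was higher, a combination found in 22.1% of the isoforms with higher usage in the table. It was over 2-fold lower for 10 of 16 isoforms, with 34.1% in the table, and over 2-fold higher for 2 of 16, with 24.8% in the table. Those with both higher usage and higher mean TPM were Gins1-204, Gins2-203 and Shld1-201. In E2f1-201, Cdt1-205, Pclaf-202, Asf1b-201 and Ung-203 the share was higher and the abundance lower, since the rest of the gene's transcripts were lower still.

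**Figure D3:**
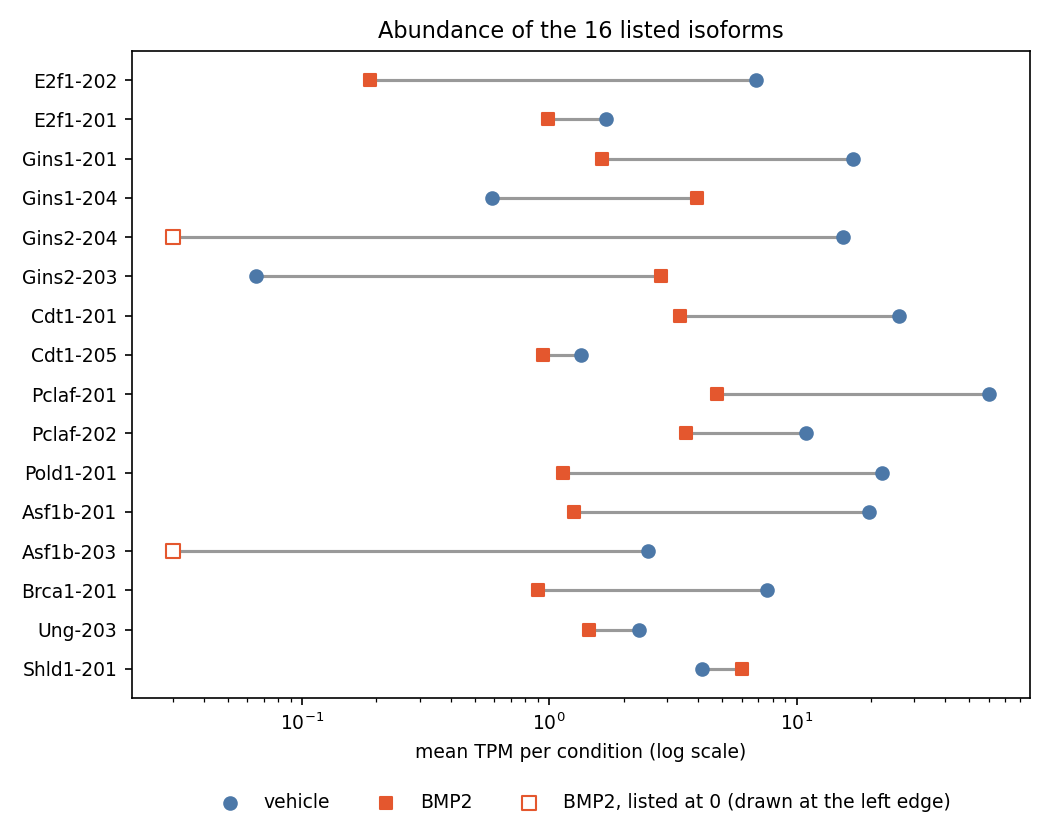
Mean TPM of each of the 16 isoforms on a log scale (horizontal axis) in vehicle (circles) and BMP2 (squares), where open squares at the left edge stand for a listed 0. Gins1-204, Gins2-203 and Shld1-201 are the isoforms whose square lies to the right of the circle.

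E2f1 encodes a transcription factor of S-phase entry (chr2:154559407-154569892, minus strand, GRCm38). It exchanged the use of the pair of isoforms that GENCODE M21 annotates, both protein-coding. In the authors' deposited table E2f1-202 fell from 80.1% to 14.5% of the gene's transcripts (q = 0.000731) and E2f1-201 rose from 19.9% to 85.5% (q = 0.00147). Mean TPM was 6.88 in vehicle and 0.188 in BMP2 for E2f1-202, a 36.5-fold difference, and 1.70 and 0.986 for E2f1-201, a 1.72-fold difference. With the vehicle usage kept, E2f1-201 would have been at 0.234 TPM in BMP2. The isoforms share 5 introns and every coding base after exon 1, 1044 bases in 6 exons. They differ in exon 1, where translation of the annotated E2f1-202 begins with 82 codons and that of E2f1-201 with 37 other codons, and both join exon 2 in the same frame, which gives proteins of 430 and 385 codons. E2f1-202 has 399 bases and E2f1-201 has 422 bases that the other lacks. The first exons overlap. That of E2f1-201 starts 172 bases further downstream and runs on past the splice site that E2f1-202 uses. The transcripts also end 227 bases apart, so the bases that only E2f1-202 has are not all in exon 1. The sequences below show how each first exon meets the same second exon. Capitals mark exon 1, which in E2f1-201 is its whole coding part (chr2:154569067-154569177, minus strand, GRCm38) from the start codon, and in E2f1-202 its last 30 bases (chr2:154569489-154569518).
E2f1-201: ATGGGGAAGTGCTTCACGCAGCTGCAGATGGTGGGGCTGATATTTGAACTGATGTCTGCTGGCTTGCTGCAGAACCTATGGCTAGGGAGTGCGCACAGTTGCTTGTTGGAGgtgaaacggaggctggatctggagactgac
E2f1-202: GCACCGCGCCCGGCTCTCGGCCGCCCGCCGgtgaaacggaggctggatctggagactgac
The exon 1 bases shown for E2f1-202 are 90.0% G or C, and the coding exon 1 of E2f1-201 54.1%. As the gene level in BMP2 was 1.17 TPM, and 1.30 or 1.15 TPM when computed from E2f1-202 or E2f1-201 alone, the BMP2 shares are coarse.

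CDT1, the licensing factor that helps load the MCM helicase, is encoded by Cdt1 (chr8:122568015-122573554, plus strand, GRCm38). Its coding isoform kept most of the usage, and one that keeps an intron gained. The authors' deposited table has Cdt1-201 at 92.9% in vehicle and 76.7% in BMP2 (q = 9.99e-08) and Cdt1-205, annotated as retaining an intron, at 4.8% and 21.3% (q = 3.6e-06). Mean TPM of Cdt1-201 was 26.1 in vehicle and 3.38 in BMP2, a 7.72-fold difference, whereas Cdt1-205 was at 1.35 and 0.943 TPM, a 1.43-fold difference. Cdt1-205 thus gained its share while being slightly less abundant. It retains the whole 92-base intron after the fourth exon (chr8:122570102-122570193, plus strand, GRCm38), and it also ends 426 bases further downstream. The retained intron is in capitals below, between 30 bases of exon on either side.
Cdt1-205: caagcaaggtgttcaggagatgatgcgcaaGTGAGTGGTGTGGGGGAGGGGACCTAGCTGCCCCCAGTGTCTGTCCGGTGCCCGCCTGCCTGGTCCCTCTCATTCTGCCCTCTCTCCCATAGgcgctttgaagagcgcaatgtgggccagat
The intron begins with GT and ends with AG. Read from the start codon of Cdt1-201, Cdt1-205 holds 242 codons before a TGA stop that begins at the second retained base, and the full coding sequence of Cdt1-201 has 557 codons. Each isoform alone gives nearly the same gene level, 28.07 TPM from either in vehicle and 4.40 or 4.43 TPM in BMP2. The definition of usage makes these values agree, so they are not separate estimates. Cdt1-201 has 11 bases that no other annotated isoform holds, and Cdt1-205 has 518.

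The GINS complex joins CDC45 and the MCM ring to form the active helicase, and 2 of its subunit genes are in the table. Gins1 (chr2:150905400-150931280, plus strand, GRCm38) moved from its coding isoform to a short one with another first exon. Gins1-201 fell from 91.4% to 30.4% (q = 5.82e-22) and the processed transcript Gins1-204 rose from 3.2% to 68.2% (q = 0.000342) in the authors' deposited table. Mean TPM of Gins1-201 was 16.9 in vehicle and 1.63 in BMP2, 10.4-fold lower, and that of Gins1-204 was 0.589 in vehicle and 3.95 in BMP2, 6.71-fold higher. Among isoforms that lie clear of other genes, Gins1-204 is the only one of this group with a mean TPM over 2-fold higher in BMP2. It begins 4194 bases upstream of Gins1-201, shares 3 introns with it, ends within an inner exon of it and does not hold the start codon of Gins1-201. Of its 339 bases only the 62 of exon 1 lie in no other annotated isoform of the gene, and they are shown in capitals (chr2:150905400-150905461, plus strand, GRCm38), joined to the first 30 bases of the exon 2 it shares with Gins1-201, whose last 30 bases of exon 1 (chr2:150909764-150909793) are shown for comparison.
Gins1-204: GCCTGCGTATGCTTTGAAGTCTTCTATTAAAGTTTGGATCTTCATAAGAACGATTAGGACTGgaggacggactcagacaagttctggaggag
Gins1-201: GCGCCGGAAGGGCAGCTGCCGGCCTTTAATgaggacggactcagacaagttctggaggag
The upstream exon is 38.7% G or C, and the end of exon 1 of Gins1-201 is 66.7%. The usage of Gins1-204 depends on reads that touch these 62 bases or on how the shared remainder was divided, and no value per library was used to check it. Unlisted isoforms of Gins1 made up 5.4% in vehicle and 1.4% in BMP2.

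Gins2 (chr8:120578633-120589304, minus strand, GRCm38) exchanged a pair of intron-retaining isoforms. Gins2-204 went from 55.2% to a listed 0 (q = 1.84e-39) and Gins2-203 from 0.2% to 54.2% (q = 1.78e-11) in the authors' deposited table. Gins2-204 was at a mean of 15.4 TPM in vehicle and a listed 0 in BMP2, and Gins2-203 at 0.0650 and 2.82 TPM. The unlisted isoforms, to which the annotated coding isoform Gins2-201 belongs, made up 44.6% in vehicle and 45.8% in BMP2, at an implied 12.4 and 2.38 TPM. The isoforms differ in length, 3662 bases in Gins2-203 and 511 in Gins2-204, with starts 2772 and ends 2911 bases apart. The bases that each has beyond every other annotated isoform of the gene are few, and they are given in capitals. Gins2-203 holds the 86-base first intron of Gins2-201 (chr8:120588840-120588925, minus strand, GRCm38). Gins2-204 begins with the last 16 bases of a later intron (chr8:120586193-120586208), and all its other bases lie in other isoforms.
Gins2-203: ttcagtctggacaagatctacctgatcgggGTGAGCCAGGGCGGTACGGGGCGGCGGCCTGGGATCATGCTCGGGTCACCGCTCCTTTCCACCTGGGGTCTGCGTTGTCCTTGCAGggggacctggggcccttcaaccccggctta
Gins2-204: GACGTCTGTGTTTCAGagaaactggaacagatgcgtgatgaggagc
Neither isoform holds the start codon of Gins2-201. Gins2-203 shares 2758 of its 3662 bases, 75.3%, with exons of Gse1, which is transcribed in the other direction. Whether reads were assigned by strand is among the details not given in the sources used here. The values of Gins2-203 are uncertain for this reason. Only its 86 intronic bases lie in no other annotated isoform, so an unlisted isoform also holds bases shared with Gse1. The gene level in BMP2, 5.21 TPM, was computed from Gins2-203. That level, its ratio to vehicle and the unlisted share and TPM in BMP2 are therefore uncertain too. Gse1 is in the table too. Gse1-201, which holds all 2758 of the shared bases, had a mean TPM of 1.34 in vehicle and 5.81 in BMP2, and Gse1-202, which holds 694 of them, at 3.14 and 1.16 TPM. Gins2-203 and Gse1-201 were thus both higher in BMP2, and the part of Gse1 reads in the Gins2-203 values was not tested. The Gse1 exons share 0 bases with the retained intron and 0 with Gins2-204.

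**Figure D4:**
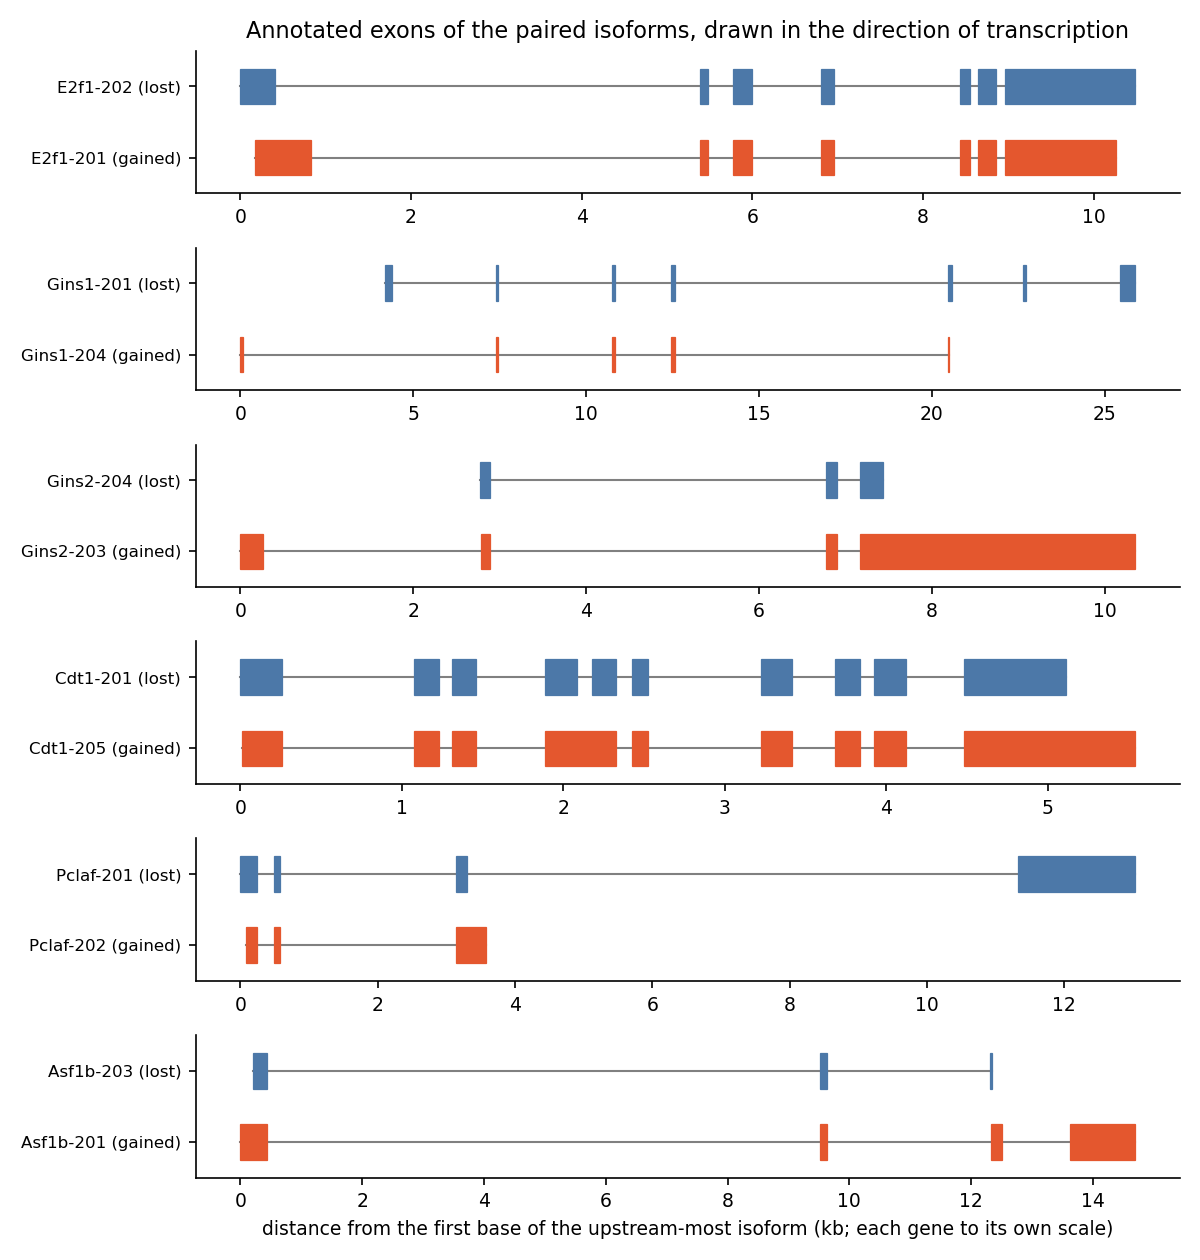
Annotated exons (boxes) and introns (lines) of the gained and lost isoform in the 6 genes with a pair, along the distance in kb from the upstream-most first base, with each gene on its own scale. In Gins1 the gained isoform starts upstream and stops within an inner exon of the lost one, and in Cdt1 a pair of neighbouring exons of the lost isoform is 1 block in the gained one.

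Pold1 and Pclaf act at the replication fork. POLD1 is the catalytic subunit of DNA polymerase delta, which extends the lagging strand (gene at chr7:44532746-44548849, minus strand, GRCm38). Pold1-201, the only listed isoform, fell from 90.6% to 72.9% (q = 0.0247) in the authors' deposited table. Its mean TPM was 22.1 in vehicle and 1.14 in BMP2, 19.4-fold lower, and the unlisted isoforms together had an implied 2.30 and 0.424 TPM. The unlisted part was therefore lower as well, but by less. The annotation holds 8 other Pold1 isoforms, and only 3 of the 3454 bases of Pold1-201 lie in none of them.

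PCLAF is a small protein that binds PCNA (gene at chr9:65890237-65903266, plus strand, GRCm38), and its gene was the most abundant of the group in both conditions. The authors' deposited table gives Pclaf-201 84.4% in vehicle and 57.5% in BMP2 (q = 0.00323), and Pclaf-202, annotated as retaining an intron, 15.4% and 41.7% (q = 0.00414). Mean TPM was 60.0 in vehicle and 4.75 in BMP2 for Pclaf-201, 12.6-fold lower, and 10.9 and 3.59 for Pclaf-202, 3.03-fold lower. Both isoforms were less abundant, the coding one by more. Pclaf-202 runs 286 bases into the third intron, which is 8023 bases long, and ends there without the fourth exon. The first 90 of these bases are printed in capitals (chr9:65893535-65893624, plus strand, GRCm38) after the last 30 bases of the exon before it.
Pclaf-202: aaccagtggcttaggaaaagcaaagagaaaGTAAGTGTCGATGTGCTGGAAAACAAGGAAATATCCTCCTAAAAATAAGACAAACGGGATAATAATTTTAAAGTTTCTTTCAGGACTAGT
Read from the start codon of Pclaf-201, Pclaf-202 holds 96 codons before a TAA stop that begins at the second intronic base, and the coding sequence of Pclaf-201 has 110 codons. Pclaf had the highest level of the genes here in BMP2, 8.27 TPM from Pclaf-201 and 8.61 TPM from Pclaf-202.

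ASF1B hands histones H3 and H4 to the assembly machinery behind the fork (gene at chr8:83955507-83970197, plus strand, GRCm38). In this gene the coding isoform gained usage. Asf1b-201 rose from 88.3% to 100% (q = 0.0149), and the processed transcript Asf1b-203 fell from 11.2% to a listed 0 (q = 0.0221), in the authors' deposited table. Yet mean TPM of Asf1b-201 was 19.6 in vehicle and 1.26 in BMP2, 15.5-fold lower, and Asf1b-203 was at 2.51 TPM and a listed 0. Had Asf1b-203 kept its vehicle usage, it would have been at 0.142 TPM in BMP2. Asf1b-203 splices 15 bases upstream of the third exon of Asf1b-201 and stops soon after. These 15 bases (chr8:83967819-83967833, plus strand, GRCm38) are in capitals in the first sequence, and in the second capitals mark the end of exon 2, which Asf1b-201 joins directly to exon 3.
Asf1b-203: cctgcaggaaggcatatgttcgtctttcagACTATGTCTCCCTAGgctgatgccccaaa
Asf1b-201: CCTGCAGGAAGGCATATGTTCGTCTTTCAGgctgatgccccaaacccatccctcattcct
Those bases, which end in AG, are all that Asf1b-203 has beyond other annotated isoforms. In the frame of Asf1b-201 they close with a TAG stop after 79 codons, and Asf1b-201 has 202 codons.

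**Figure D5:**
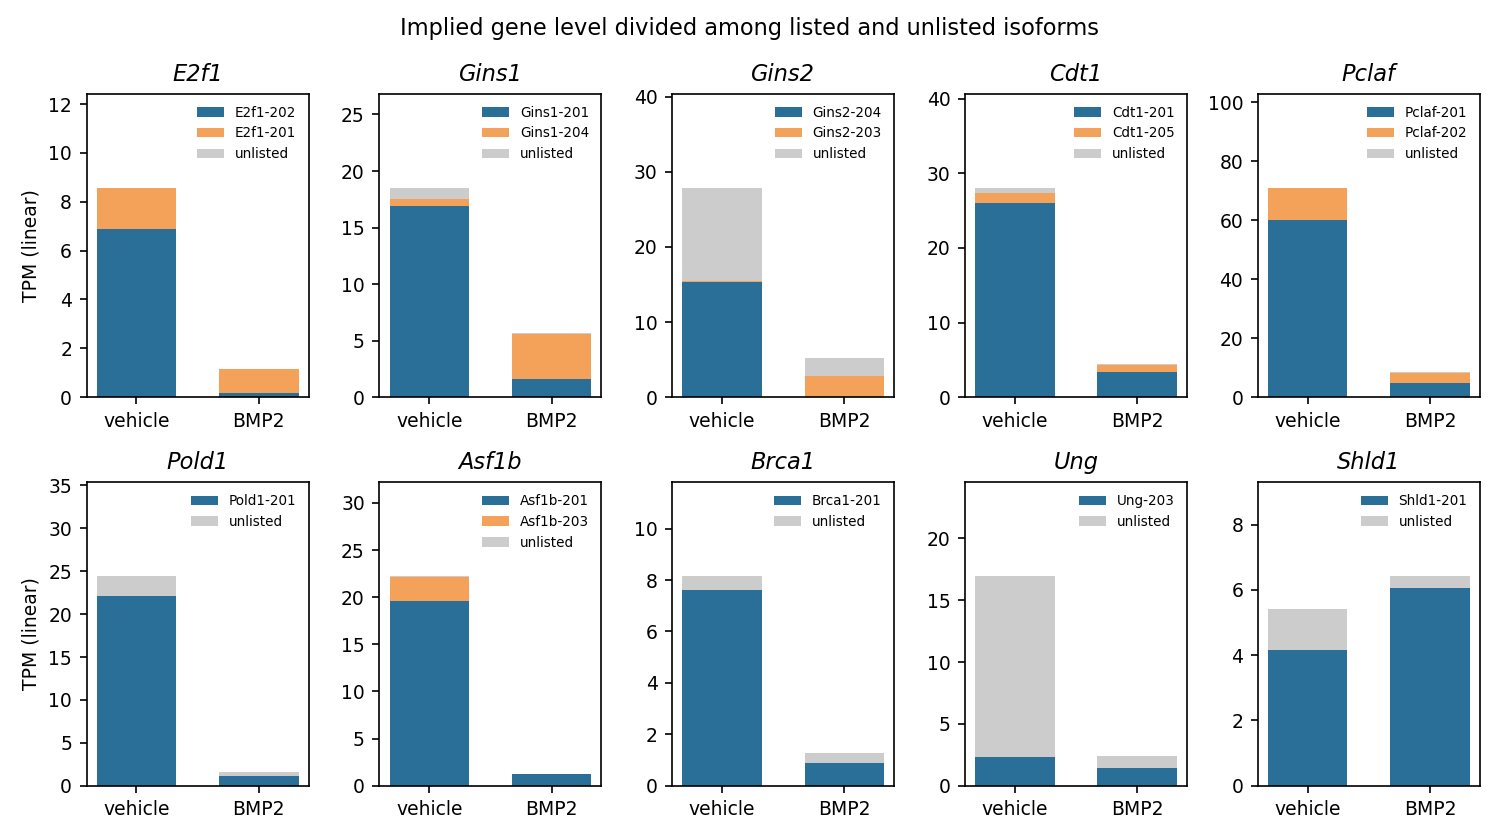
Implied gene level in TPM (vertical axis, linear, from 0, each gene on its own scale) in vehicle and BMP2, divided into the listed isoforms and the unlisted remainder (grey). The bar for BMP2 is lower in 9 of the 10 genes, and in Ung most of the vehicle bar is unlisted.

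Brca1, Ung and Shld1 serve DNA repair, and each has 1 listed isoform. BRCA1 promotes homologous recombination at broken or stalled forks (gene at chr11:101488764-101551955, minus strand, GRCm38). Usage of Brca1-201, whose annotated coding sequence has 1812 codons in a transcript of 23 exons, fell from 93.4% to 69.9% (q = 0.00929) in the authors' deposited table. Mean TPM was 7.61 in vehicle and 0.897 in BMP2, 8.48-fold lower. The unlisted isoforms had an implied 0.538 and 0.386 TPM, so the isoform that encodes the long protein accounts for most of the lower level.

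UNG cuts uracil out of DNA, and its gene is known to give a nuclear and a mitochondrial enzyme from different starts (chr5:114130386-114139323, plus strand, GRCm38). Ung-203 rose from 13.6% to 60.2% (q = 1.2e-14) in the authors' deposited table. Its mean TPM was 2.30 in vehicle and 1.44 in BMP2, 1.60-fold lower, while the unlisted isoforms had an implied 14.6 and 0.954 TPM. The larger share thus went with lower values of the other isoforms and not with a higher value of Ung-203. Ung-203 begins downstream of Ung-201 and Ung-202 and is annotated with 199 codons, against 306 and 295. Only 15 of its 1733 bases are in no other annotated isoform.

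SHLD1 is a subunit of shieldin, which protects broken DNA ends from resection and favours end joining (gene at chr2:132686931-132751055, plus strand, GRCm38). Shld1-201 rose from 76.8% to 94.2% (q = 0.00016) in the authors' deposited table. Its mean TPM was 4.15 in vehicle and 6.05 in BMP2, 1.46-fold higher, and the unlisted isoforms had an implied 1.25 and 0.372 TPM. Shld1 differed from the other 9 genes in that its level was not lower, with 5.41 TPM in vehicle against 6.42 TPM in BMP2. Shld1-201 and the unlisted Shld1-202 are both annotated with 618 coding bases and differ in their first exon, which in Shld1-201 is 51 bases long and in no other isoform.

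Of the 10 protein-coding isoforms of the group 4 rose and 6 fell, and among 225 such isoforms of the other genes 39.1% rose. Of the 6 isoforms of other classes 4 rose and 2 fell, and among 56 such isoforms of the other genes 64.3% rose, so the classes of the group divided much as in the table. Among the 6 pairs, usage moved from a coding to another class in 3 (Gins1, Cdt1 and Pclaf), the other way in Asf1b, between coding isoforms in E2f1 and between intron-retaining ones in Gins2. Cdt1-205, Pclaf-202 and Asf1b-203, the 3 non-coding isoforms that hold the start codon of the coding isoform, each meet a stop codon in their own intronic bases, as given above. All 6 pairs differ in at least 1 intron and in their ends by over 50 bases, and 5 differ in their starts by that much. The gained isoform was the shorter in Gins1 and Pclaf and the longer in the other 4.

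Of 119 other genes of replication, S-phase control and repair looked for, 4 are in the table with 6 isoforms, of which 2 rose and 4 fell in usage by the authors' q, where 45.0% of the table rose. The level was over 2-fold lower for 2 of the 4, where 31.8% of the 195 genes with a level were. Fanca, of the Fanconi anaemia core complex, had a level of 12.0 TPM in vehicle against 2.83 TPM in BMP2. Rnaseh2a, the catalytic subunit of an enzyme that removes ribonucleotides from DNA, was at 52.3 and 19.2 TPM. Its intron-retaining Rnaseh2a-205 fell from 18.9% to 0.5% (authors' deposited table, q = 8.66e-07). The processed transcript Rnaseh2a-208 rose from 3.4% to 13.6% (q = 6.93e-07) and the coding Rnaseh2a-209 from 9.3% to 23.4% (q = 0.000105), both by the authors' q. Atm, a kinase of the double-strand break response, was at 4.86 and 2.80 TPM, and E2f3, another E2F factor, at 7.30 and 12.0 TPM. Unlisted isoforms made up 68.5% of Fanca, 68.4% of Rnaseh2a, 17% of Atm and 49.1% of E2f3 in vehicle. The same shares in BMP2 were 85.3%, 62.5%, 53.5% and 83.9%, so several of these levels rest on minor isoforms. The median log2 ratio of the level was -1.12 over these 4 genes, with E2f3 the only one above 0, and 4 genes are too few to read against the table. The remaining 115 genes of that list, with the MCM genes and Pcna among them, are not in the table, and their usage and level were not analysed here.

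Since E2F factors bind many promoters of S-phase genes, the RefSeq promoter windows (GRCm38.p6, 250 bases before to 50 after a gene start) were searched for the letters TTTCCCGC, TTTGGCGC, TTTCGCGC and TTTGCCGC on both strands. Windows were found for 8 of the 10 genes, not for Gins1 and Gins2, and 3 of the 8 genes hold a match. By window the share was 3 of 10 for this group, 10 of 247 (4.05%) for the other genes of the table and 2.26% for all 32851 windows of this length. Shld1 has several of the 10 windows, and no share by gene was computed for the other genes. The matches are in capitals below, in Pold1 (chr7:44548766-44548786, minus strand), Cdt1 (chr8:122568037-122568064, plus strand) and Pclaf (chr9:65890308-65890335, plus strand), all written in the direction of the gene.
Pold1: gtatcttgtgGCGGGAAAagc
Cdt1: gaactaccttTTTGGCGCcatggcgcaa
Pclaf: cttggagcgcGCGGGAAAgagacccatt
In Pold1 and Pclaf the letters read TTTCCCGC on the opposite strand. The match begins 5 bases before the start in Pclaf, and 39 and 32 bases after it in Pold1 and Cdt1. The windows of E2f1, Asf1b, Brca1, Ung and Shld1 hold none of these letters. The E2f1 window lies within the first exon of E2f1-201, since the RefSeq start differs from those of both annotated isoforms. It holds no base upstream of either annotated start, so the sequence before those starts was not searched, though E2f1 is counted among the 8 genes.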

How the data were processed

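RNA of 6 libraries, 3 per condition, was quantified with kallisto 0.46.1, per the submitters' processing notes, which also name mm39 as the build. The authors deposited 1 table of their comparison. Its usage fractions, their differences and the q-value of each change are the authors', per the file headers, as are the TPM means over the libraries of a condition. Details not given in the sources used here include the annotation release, test, filters and strand setting. Ranks in the table run to 380 and 78 are absent. The design planned a test across libraries if values per library were given. The table holds means per condition, and no such test was made.

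The 10 genes, the gene lists and the limits were chosen with earlier results of these data known. All listed isoforms of the 10 genes are named, with other genes of a fixed pathway list where the table holds them, of which 1 is not reported here. Fractions were printed as percents. The implied gene level was checked on simulated data, made from known levels with rounded fractions. That covers the arithmetic and the rounding only, and neither read assignment nor low counts were simulated. All 16 isoforms were found in GENCODE M21 (GRCm38) by transcript identifier, with a version 1 step older than the authors', and small differences at exon ends are possible. Sequences are from its transcripts, and promoters from RefSeq. Coordinates are 1-based and none was converted. Alternatives were a q of 0.01, a usage difference over 20 points, a level of at least 5 or 1 TPM, the level from the most used listed isoform, a fold of 4, a pseudocount of 1 TPM, and ends over 200 bases apart. Python 3.11.15 and pandas 2.3.3 were used.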

Additional observations from a re-analysis of the deposited data

How the results depend on the processing

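With a usage difference over 20 points, 10 of the 16 isoforms were left, 5 of them with higher usage. Where both conditions reached 5 TPM, genes held 7 isoforms, 4 of them with higher usage (Gins1, Gins2, Pclaf and Shld1). Gins2 lay just above this limit in BMP2, at 5.21 TPM, a level that rests on Gins2-203. Chosen after seeing the data, a minimum of 50 bases in no other annotated isoform left 11 isoforms, of which 6 were over 2-fold less abundant in BMP2, compared with 10 of 16. These counts are smaller because fewer isoforms enter them. The 9 genes with a level over 2-fold lower numbered 9 with the level from the most used listed isoform and 9 at 1 TPM or more, and 8 were over 4-fold lower. The limit of 1 TPM could not change this count, since the lowest level of the group in either condition was 1.17 TPM. The level from the most used listed isoform moved no gene's log2 ratio by more than 0.034, which the definition of usage nearly fixes in advance. TPM over usage gives the same level from every isoform of a gene, apart from rounding and averaging. For the genes with 1 listed isoform the calculation is identical. The 6 pairs still differed with ends over 200 bases apart, a count that this limit could not change, since all 6 differ in introns. No paired analysis was possible because the table gives means per condition, and leaving out libraries was not run for the same reason.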
